A study of Homo sapiens with 2 samples.

Results

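The kinetochore is the protein assembly that ties each chromosome to spindle microtubules during cell division. The 37 genes described here encode its parts and close partners: the centromeric histone, the constitutive centromere network, the microtubule-binding outer layer, the spindle checkpoint and the chromosomal passenger complex. They were taken as a fixed list of gene symbols, chosen with earlier results of these data known. All 37 were found among 28117 named genes. Each had a mean of at least 1 CPM (counts scaled to a common library size) over the libraries. The cells were HEK293T, a human embryonic kidney line that carries the SV40 large T antigen. Poly-A RNA of cells transfected with a non-targeting control RNA (GL2) gave the control library. That of cells transfected with a mimetic of tRF-3004b, a fragment of a transfer RNA, gave the mimetic library, labelled tRF-3004b in the plots. Each RNA was used at 500 nM by reverse transfection, and cells were collected after 120 h. With 1 library per group there was no spread between replicates to estimate, so every difference below is between these 2 libraries and carries no p-value for the conditions.

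The centromere is marked by nucleosomes that hold the histone H3 variant CENP-A. On these sits the constitutive centromere-associated network (CCAN), which recruits the KNL1, MIS12 and NDC80 complexes that grip microtubules at mitosis. Checkpoint kinases and MAD2 delay anaphase until every kinetochore is attached, and the passenger complex around Aurora B corrects wrong attachments. Transcription of many of these genes peaks late in the cell cycle, so their RNA level in a culture also moves with the share of dividing cells, and fewer cells of a stage cannot be told apart from less RNA per cell.

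The transfected RNAs are shown first because they are the sole labelled difference between the libraries. Capitals mark bases 2 to 8, the seed by which such small RNAs can pair with messages.
tRF-3004b mimetic: uCAAAUCUcgguggaaccucca
non-targeting control: cGUACGCGgaauacuucgauu
The heptamer complementary to the tRF-3004b seed, AGATTTG, was searched in the sense strand of the 3' UTR of each gene's most abundant transcript that had a counterpart in GENCODE 29. It occurred in 5 of the 37 members (13.5%) and in 1822 of 12215 searched measured genes (14.9%). The complement of the control seed, CGCGTAC, occurred in none of the members and in 28 genes. The members' sites are given with 10 bases on either side, on the strand of the message, and capitals mark the heptamer.
CENPA: tgaaaacatcAGATTTGctgtggtatg
CENPK: tcttatttctAGATTTGtttaaaattg
MAD2L1: agtttaaggcAGATTTGtaaagtcttc
MIS12: actttttattAGATTTGctttgtcaac
SKA1: gaggggctggAGATTTGtgtcaataat
Of these members, CENPA and SKA1 had log2 ratios (mimetic over control) of -0.58 and -0.51. MIS12, CENPK and MAD2L1 stood at 0.27, 0.73 and 0.76, so members with a site lay on both sides of 0. Over all searched genes the median was -0.25 with a site and -0.08 without. Genes with and without a site were not matched for length, and ratios fell with transcript length across all measured genes. The bin medians ran from 0.62 for the shortest to -0.44 for the longest, and the part of length in the difference by site was not tested. A match of letters is a description and does not show that the site is used.

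Estimated counts summed to 19609933 for the control and 1809193 for the mimetic, a 10.8-fold difference in depth that set the precision of every ratio. The median member had 1453 and 180 counts, against 433 and 34 for the median of the 13750 genes called measured (1 CPM or more on average). Among HEK293 markers, NEFL had 1950 control and 94 mimetic counts, and LHX1 had 61 and 0. Summed over each list, markers of other cell types were higher after the mimetic. The 9 fibroblast genes summed to 36.4 and 118 CPM, the 10 epithelial genes to 29.8 and 76.0 CPM and the 9 blood genes to 4.11 and 53.5 CPM. Not every gene rose. Of the 7 fibroblast genes that were measured, 6 had a log2 ratio (mimetic over control) above 0. FBLN1, with 473 control and 37 mimetic counts, was lower at -0.19, and PDGFRA stood at 0.21 on 58 and 6 counts. All 9 fibroblast genes had counts in both libraries, KRT5 had none in either, and of the blood genes CD3E had none in the control library and MS4A1 none in the mimetic library. Their part in the members' ratios was not tested.

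Most members lay close to equality between the libraries, and CENPE lay far above the rest. At a fold of 2, 3 of 37 were higher in the mimetic library (CENPE, CENPM and CENPQ), where 12.2% of all measured genes were, and none was lower, where 14.2% of all measured genes were. Of the 8718 genes that averaged 10 CPM or more, a level that 36 members reached, 6.1% were at least that much higher and 8.63% lower. Ratios were above 0 for 21 members and below 0 for 16, and the corresponding shares of measured genes were 44.5% and 55.5%. The median log2 ratio was 0.17 for the members and -0.11 for all measured genes. Within 1.5-fold of equality lay 27 members. The same count was not taken over all measured genes, so it does not set the members apart from them. On the scale of gene TPM with 1 added, 14 members lay above 0 and 23 below, with medians of -0.10 for the members and -0.38 for all measured genes, of which 4.95% were then at least 2-fold higher and 17.7% lower. The members' median was thus above that of all genes by 0.27 with scaled counts and by 0.28 with TPM, while its sign depended on the scale.

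For each ratio an exact 95% interval was computed, which covers counting error only. It lay wholly above 0 for 17 members (45.9%) and wholly below 0 for 6 (16.2%), against 23.3% and 28.6% of measured genes. Of these 17, CENPF, NUF2, MIS12 and SKA2 had ratios below 0 on the TPM scale. The members had more counts than most genes, which narrows intervals. Among the genes that averaged 10 CPM or more, 26.8% had an interval above 0 and 36.7% below. The plot of log2 ratios by role shows CENPE alone above 2 and no member below -0.61.

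**Figure D1:**
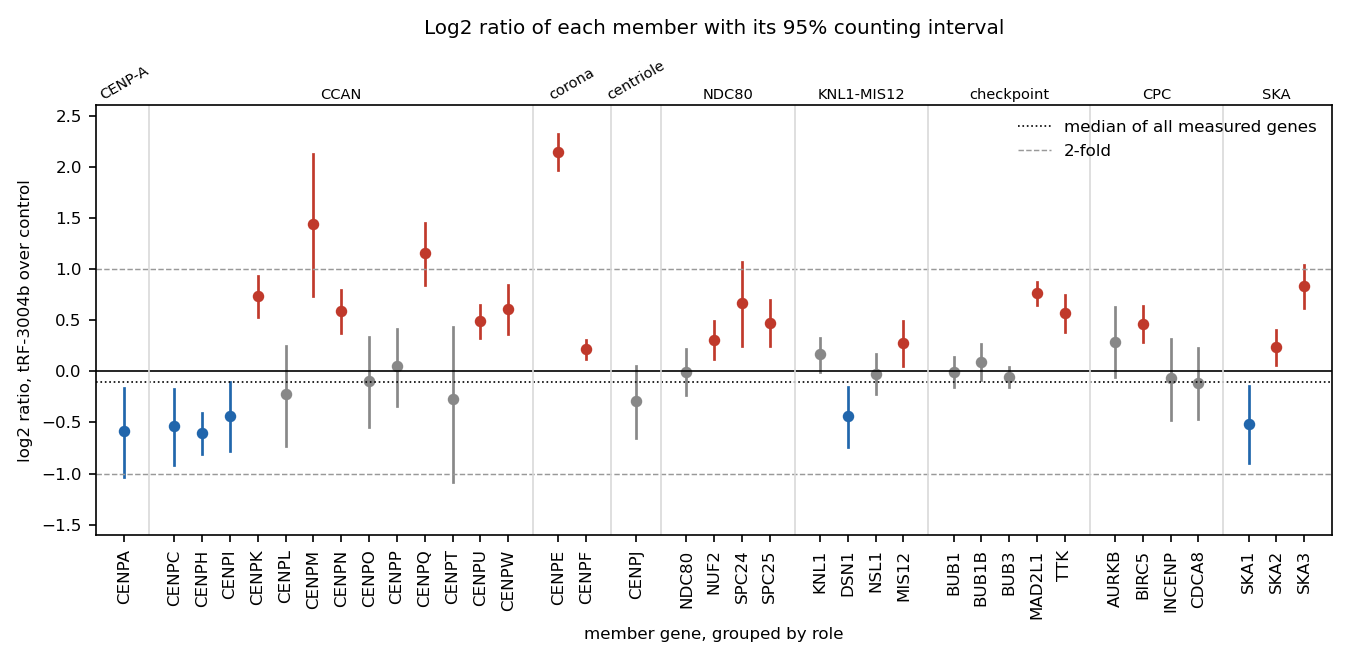
Log2 ratio, tRF-3004b over control (vertical axis), for the 37 members, grouped by role along the horizontal axis. Points are ratios and bars are 95% counting intervals, in red where the interval lies above 0 (17 members), in blue where it lies below 0 (6 members) and in grey where it holds 0 (14 members). CENPE stands highest at 2.14 and CENPH lowest at -0.61.

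Within each library, levels were compared between genes as TPM, the share of transcripts after correction for their length. The median member had 72.5 TPM in the control library, against 16.0 TPM for the median measured gene, and 21 members lay above percentile 75 of measured genes. BUB3, the checkpoint protein that carries BUB1 and BUBR1 to KNL1, was the most abundant member in both libraries, with 422 and 434 TPM. CENPH, a CCAN subunit, came second in both, with 347 and 180 TPM. The least abundant was CENPT, which links the CCAN to NDC80, with 10.5 and 6.85 TPM. The order of the members was much alike in the libraries (Spearman's rho 0.92 over 37 genes measured in the same 2 libraries), and CENPE made the widest move, from rank 35 to rank 23.

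**Figure D2:**
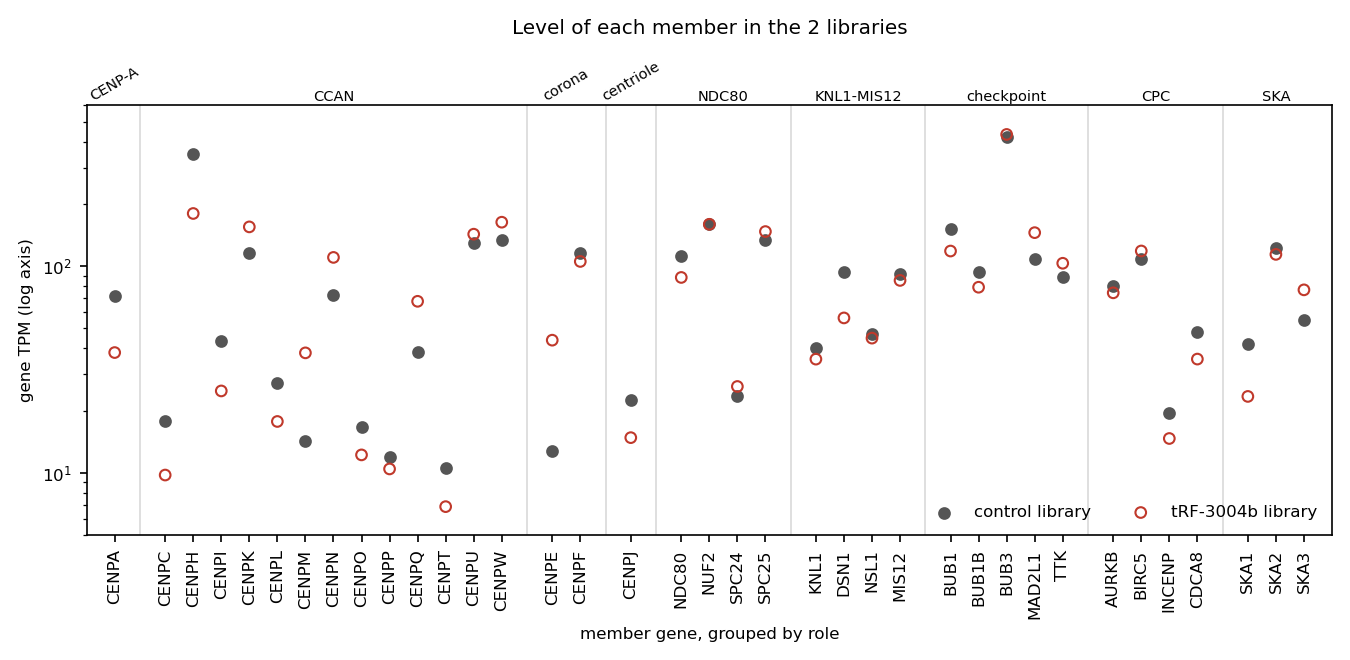
Gene TPM on a log axis for each member, grouped by role, with filled grey points for the control library and open red points for the tRF-3004b library. Levels run from 10.5 TPM (CENPT) to 422 TPM (BUB3) in the control library, and the CENPE points lie furthest apart, at 12.7 and 43.8 TPM.

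CENPA, the histone variant that marks the centromere (chromosome 2, 26786056 to 26794589, GRCh38.p14), gave 807 control and 48 mimetic counts, or 40.5 and 27.0 CPM. It was lower after the mimetic, at -0.58 on the log2 scale (interval -1.03 to -0.16). Among genes that load or guard CENP-A, HJURP, its chaperone, had 40.1 and 43.3 CPM, and stood at 0.11 (interval -0.25 to 0.45). The licensing factor MIS18A stood at 0.28, and OIP5, its partner, at 0.51. On the TPM scale HJURP (29.96 and 26.11 TPM) and MIS18A (200.9 and 192.3 TPM) were lower in the mimetic library, so their direction depended on the scale.

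The 13 CCAN members went both ways, as measured genes did. Intervals lay above 0 for 6 (46.2%) and below 0 for 3 (23.1%), against 23.3% and 28.6% of measured genes. The median log2 ratio was 0.05, against -0.11 for all measured genes. In the subcomplex of CENPH, CENPI, CENPK and CENPM, members of a single assembly had intervals that did not overlap. CENPH (chromosome 5, 69189583 to 69210357) had 3800 and 222 counts, which is 191 and 125 CPM. Its ratio was the lowest of all members, -0.61 on the log2 scale (interval -0.81 to -0.41), or 1.52-fold lower after the mimetic. CENPI, on the X chromosome, had 60.2 and 44.5 CPM and a log2 ratio of -0.44 (interval -0.78 to -0.11). CENPK, by contrast, had 79.3 and 132 CPM, and its log2 ratio was 0.73 (interval 0.53 to 0.93). CENPM (chromosome 22, 41927196 to 41947152), which resembles a small GTPase without its activity, had 94 and 23 counts, or 4.71 and 12.9 CPM. It was 2.72-fold higher, with the widest interval among members past 2-fold, from 0.73 to 2.13 on the log2 scale. After the control library was thinned once to the depth of the other, the log2 ratio of CENPM was 0.56.

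The subcomplex of CENPO, CENPP, CENPQ and CENPU, which helps to hold Polo-like kinase at the kinetochore, held another member past 2-fold. CENPQ (chromosome 6, 49463370 to 49493107) gave 555 control and 110 mimetic counts, or 27.8 and 61.9 CPM. It was 2.22-fold higher, with a log2 ratio of 1.15 (interval 0.85 to 1.45), and it shared no 31-base word with another gene's GENCODE transcripts. With gene TPM and 1 added its log2 ratio was 0.80, inside 2-fold. CENPU, the subunit that Polo-like kinase binds, had 137 and 192 CPM and a log2 ratio of 0.49 (interval 0.32 to 0.65). CENPO and CENPP were close to equal, at -0.09 (interval -0.54 to 0.33) and 0.05 (interval -0.34 to 0.42). Their values are uncertain in another way: 27.0% of the exon bases of CENPO overlap ADCY3 and 38.0% of those of CENPP overlap IPPK on the opposite strand, and the strand setting of the counting is not given in the sources used here. The same holds to a lesser degree for CENPN with CMC2 (12.8%), CENPU with PRIMPOL (11.7%) and CENPT with TSNAXIP1 (10.8%).

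Of the remaining CCAN members, CENPC, which contacts the CENP-A nucleosome and recruits MIS12, had 53.8 and 37.2 CPM and a log2 ratio of -0.53 (interval -0.91 to -0.17). CENPN, which reads the CENP-A nucleosome, had 78.0 and 117 CPM and a ratio of 0.59 (interval 0.37 to 0.80). Its direct partner CENPL stood at -0.22, with an interval from -0.73 to 0.25. The histone-fold partners CENPT and CENPW likewise differed in sign: CENPT was at -0.27 on 231 and 17 counts (interval -1.08 to 0.43), and CENPW at 0.61 (interval 0.37 to 0.84) with 61.6 and 94.0 CPM. The intervals of CENPT and CENPW overlapped, and those of CENPL and CENPN did not.

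CENPE and CENPF are parts of the fibrous corona, the outermost layer that catches microtubules before end-on attachment. CENPE (chromosome 4, 103105811 to 103198343), a kinesin that walks chromosomes toward the spindle equator, gave 929 control and 366 mimetic counts, which is 46.6 and 206 CPM. The mimetic library was thus 4.42-fold higher, at 2.14 on the log2 scale (interval 1.97 to 2.32). That interval lay clear of the interval of every member other than CENPM. The ratio was at percentile 96.7 of all 13750 measured genes, and 23 of the 8718 that averaged 10 CPM or more had a higher one. CENPE shared no 31-base word with transcripts of another gene. CENPF, a large microtubule-binding protein of the corona and nuclear matrix, had 528 and 612 CPM and stood at 0.21 (interval 0.12 to 0.30). In TPM, CENPF exceeded CENPE by 9.07-fold in the control library and by 2.40-fold in the mimetic library.

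The NDC80 complex is the main microtubule coupler, a rod with NDC80 and NUF2 at the outer end and SPC24 and SPC25 at the inner end. NDC80 itself was level with scaled counts, at 100.7 and 100.2 CPM, with a log2 ratio near 0 (-0.0070, interval -0.24 to 0.21). Its partner NUF2 was at 0.31 (interval 0.12 to 0.49), SPC25 at 0.48 (interval 0.24 to 0.70) and SPC24 at 0.67 (interval 0.25 to 1.07). With gene TPM and 1 added, NDC80 was at -0.34, NUF2 at -0.0045, SPC25 at 0.13 and SPC24 at 0.14. In TPM the subunits were unequal: NUF2 was 6.79-fold above SPC24 in the control library and 6.10-fold above it in the mimetic library, with 160 and 23.6 TPM in the control. SPC24 had 409 and 58 counts.

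KNL1 is the scaffold for checkpoint proteins, and MIS12, DSN1 and NSL1 belong to the complex that joins it to the CCAN. KNL1 had 165 and 185 CPM, with a log2 ratio of 0.17 (interval -0.0028 to 0.33). MIS12 stood at 0.27 (interval 0.05 to 0.49) and NSL1 at -0.03 (interval -0.23 to 0.17). DSN1, the subunit that Aurora B phosphorylates to strengthen binding to CENP-C, was lower after the mimetic, with 81.0 and 59.7 CPM and a log2 ratio of -0.44 (interval -0.74 to -0.16). The intervals of DSN1 and MIS12 did not overlap.

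Of the 5 checkpoint genes, MAD2L1 and TTK were higher after the mimetic and the BUB genes were near 0. MAD2L1, which encodes MAD2, the inhibitor of CDC20 (chromosome 4, 120055623 to 120066848), had 249 and 423 CPM. On 4972 and 751 counts its log2 ratio was 0.76 (interval 0.65 to 0.87). TTK, the MPS1 kinase that starts checkpoint signalling, stood at 0.57 (interval 0.39 to 0.74) with 113 and 167 CPM. The RNAs of the BUB genes were level with scaled counts. BUB1 was at -0.0057 with 246 and 245 CPM, BUB1B, which encodes BUBR1, at 0.09, and BUB3 at -0.05. Their intervals held 0 and reached from -0.15 at the lowest to 0.27 at the highest. With gene TPM and 1 added, BUB1, BUB1B and BUB3 were at -0.35, -0.25 and 0.04.

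In the chromosomal passenger complex, AURKB is the kinase and INCENP, BIRC5 (survivin) and CDCA8 (borealin) place and activate it. BIRC5 had 119 and 165 CPM and a log2 ratio of 0.47 (interval 0.29 to 0.64). The other three had intervals that held 0, with AURKB at 0.29, INCENP at -0.07 and CDCA8 at -0.11. INCENP was the least abundant subunit in both libraries, with 19.4 and 14.6 TPM. BIRC5 exceeded it by 5.60-fold in the control library and 8.08-fold in the mimetic library.

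The SKA complex strengthens NDC80 on depolymerising microtubules, and its 3 subunits differed in direction. SKA3 (chromosome 13, 21153595 to 21176552) had 67.3 and 120 CPM, and its log2 ratio of 0.83 (interval 0.62 to 1.04) was the largest inside 2-fold. SKA2 was at 0.24 (interval 0.06 to 0.41). SKA1, on chromosome 18, had 51.5 and 36.0 CPM and a log2 ratio of -0.51 (interval -0.90 to -0.15). In TPM, SKA2 was 2.93-fold above SKA1 in the control library and 4.87-fold above it in the mimetic library. CENPJ, listed with the centromere proteins by its name, encodes a centriole assembly factor that RefSeq now calls CPAP. It had 50.3 and 41.1 CPM and a log2 ratio of -0.29 (interval -0.66 to 0.05).

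Ratios were lower for longer transcripts across the whole comparison. Over 10 bins of length, the median of all measured genes ran from 0.62 (shortest transcripts) to -0.44 (longest). Against the median of their own bin, 25 members were higher and 12 lower, with a median difference of 0.23. CENPE, at 8336 bases in the longest bin, stood 2.58 above its bin, and MAD2L1, at 5227 bases, 1.09 above. KNL1 and CENPF, the other members of the longest bin, stood 0.61 and 0.65 above. Among short members, CENPM and CENPQ stood 0.82 and 0.89 above their bins, inside 2-fold, while CENPW fell on its bin median (a difference of -0.01). CENPH and CENPA, both in a bin with a median of 0.26, lay furthest below, at -0.87 and -0.85. The part of length in the members' ratios was not tested further.

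**Figure D3:**
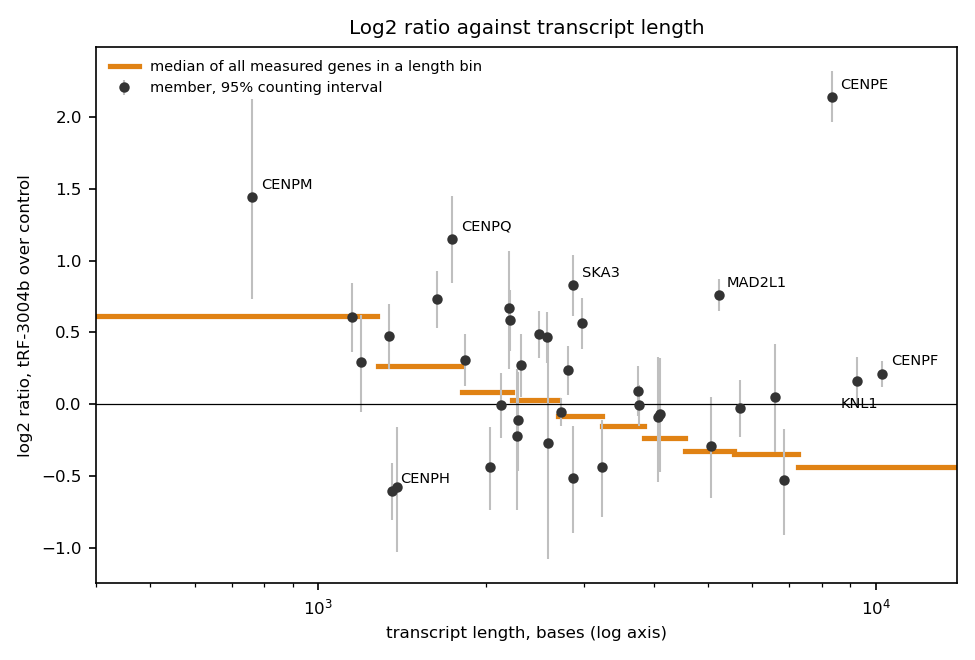
Log2 ratio, tRF-3004b over control, against transcript length in bases (log axis). Points are the 37 members with 95% counting intervals, and horizontal bars are the medians of all measured genes in 10 length bins, which run from 0.62 down to -0.44. CENPE lies 2.58 above the bar of its length bin, and CENPH 0.87 below its own.

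The promoters of the members were compared with those of other genes for the cell cycle genes homology region (CHR), the element through which the DREAM and MuvB complexes time late cell cycle transcription. RefSeq promoter windows on GRCh38.p14, from 250 bases before to 50 after an annotated start of each gene, were found for 30 of the 37 members. For AURKB, CENPI and CENPJ that start lay inside the span listed for the gene, so their windows do not cover its outer end. The CHR core TTTGAA, on either strand (TTCAAA), was present in 14 of these 30 (46.7%), in 9.85% of 10906 windows of measured genes and in 15.4% of all 27305 windows. CCAAT boxes (CCAAT or ATTGG) were present in 17 (56.7%), against 35.7% of all windows. Both motifs occurred in 8 members (26.7%), against 6.08% of all windows. In 4 members the core lay wholly within the 60 bases before the start, in the same orientation. Those bases are given for these, on the strand of the gene, with the CHR core and, in INCENP, a CCAAT box in capitals.
BUB1B: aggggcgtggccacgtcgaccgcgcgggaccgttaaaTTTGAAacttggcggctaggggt
CDCA8: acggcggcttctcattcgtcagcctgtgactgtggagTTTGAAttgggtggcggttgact
CENPA: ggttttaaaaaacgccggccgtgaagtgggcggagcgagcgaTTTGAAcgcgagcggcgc
INCENP: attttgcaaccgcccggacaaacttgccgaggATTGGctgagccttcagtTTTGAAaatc
The stretches are chr15:40161009-40161068, chr1:37692456-37692515, chr2:26785996-26786055 and chr11:62123951-62124010, all on the plus strand. In CDCA8 an ATTGG, not in capitals, begins on the last base of the core. These genes had log2 ratios of 0.09, -0.11, -0.58 and -0.07, and the interval of CENPA alone excluded 0, below it. No match of either motif was found in the window of CENPE. That says only that these letters are absent from the window.

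Transcripts of the same member could be set apart in part, since counts were deposited per transcript. For 23 members at least 2 transcripts each held 10% or more of the gene's counts in a library and the gene had at least 20 counts in both. In 22 of them (95.7%) some transcript's share had intervals that did not overlap between the libraries. The same held for 85.5% of 4053 measured genes that met the same conditions, so such differences were general to these libraries. These intervals cover counting error only, and the error of sharing reads among near-identical transcripts is not in them. CENPJ differed most: its transcript of 4997 bases, which RefSeq lists as non-coding, held 3.58% of counts in the control library and 100% of 73 counts in the mimetic library, whereas the transcript of 5082 bases held 74.3% of the control counts and none of the others (at most 4.93%). In CENPO the transcript of 4106 bases held 71.3% in the control library and 0% of 49 counts in the other (at most 7.25%). The INCENP transcripts, 4102 and 4114 bases long, held 45.1% and 54.9% of the control counts and 95.5% and 4.53% of the other 59 counts. CENPL had a transcript of 2555 bases at 0% in the control library and 47.2% of 39 counts in the mimetic library.

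The counts behind a shift were larger in CENPN, and in CENPE and BUB3, which were chosen after their values were seen. They were also larger in other members, such as CENPK and NUF2. A CENPK transcript of 1697 bases held 46.3% of 1581 control counts and 75.8% of 234 mimetic counts. A NUF2 transcript of 1818 bases held 77.45% of 2463 control counts and 100% of 272 mimetic counts. In CENPN the transcript of 4663 bases held 51.0% of counts in the control library and 0% of 208 counts in the mimetic library, while the transcript of 4561 bases held 7.66% and 40.9% and that of 1465 bases 36.7% and 59.1%. By counts, the larger gain was thus in a transcript close in length to the one at 0. As a share of gene TPM, the loss of the CENPN transcript of 4663 bases was 26.9 percentage points in place of 51.0. On that scale the transcript of 4561 bases held 4.13% and 17.2% and that of 1465 bases 65.9% and 82.8%. The larger gain was then in the short transcript, so the order depended on the scale. CENPE counts came from a transcript of 8178 bases (75.8% in the control library, 49.4% in the mimetic library) and one of 8541 bases (24.2% and 50.6%), so both were higher in the mimetic library, with 704 and 225 counts in the control and 181 and 185 in the other. BUB3 has a short transcript of 1555 bases that held 35.5% of counts in the control library (interval 34.6% to 36.4%) and 56.0% in the mimetic library (interval 52.8% to 59.1%), and a long one of 7703 bases that held the rest. As a share of gene TPM the short one led in both libraries, at 74.6% and 87.2%, a difference of 12.6 percentage points in place of 20.5. The mean transcript length, weighted by TPM, was shorter in the mimetic library for 15 of the 23 members, by 100 bases or more for 6, and longer for 8, by 100 bases or more for 2. Of the 4053 genes, 56.9% were shorter (17.1% by 100 bases or more) and 41.4% longer (11.7%), so the members' split had the direction seen across genes. The plot of transcript shares shows that the unequal split in CENPJ, CENPO and INCENP was between transcripts of nearly the same length.

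**Figure D4:**
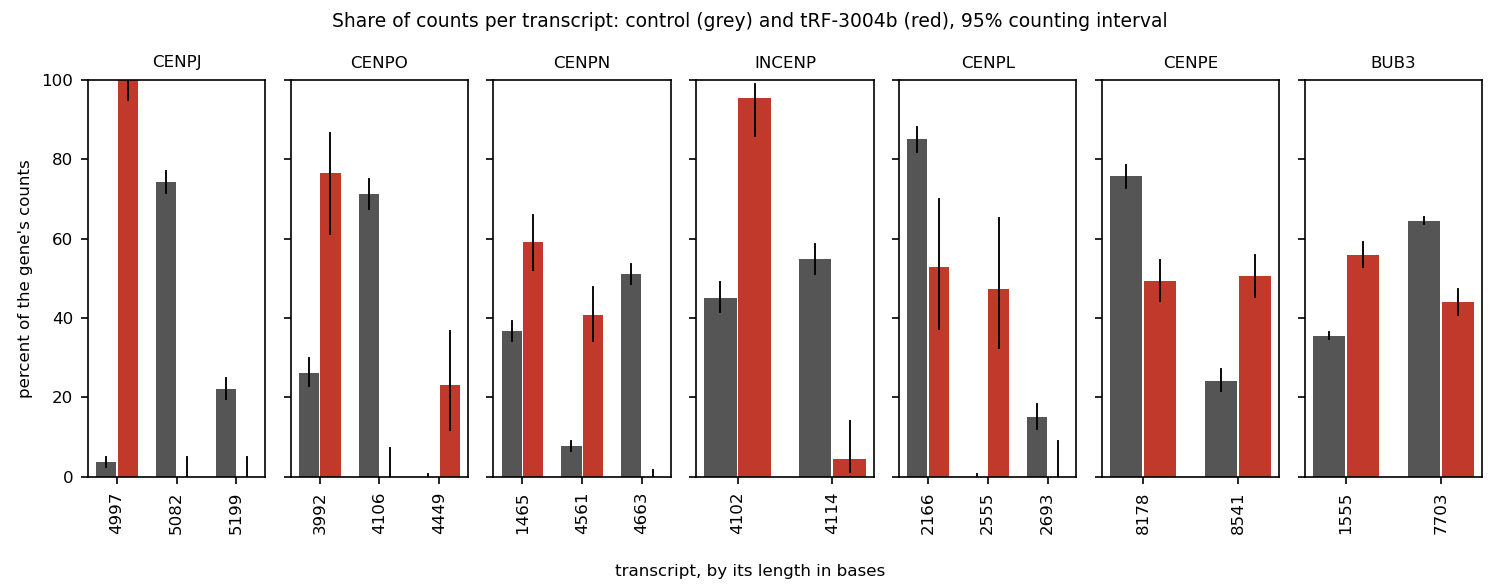
Share of each gene's counts (percent) from each transcript, labelled by its length in bases, in the control library (grey) and the tRF-3004b library (red), with exact 95% counting intervals. Shown are the 5 members with the largest difference in a share, then CENPE and BUB3, and transcripts with at least 10% in a library. The longer CENPE transcript holds 24.2% and 50.6%, and the shorter BUB3 transcript 35.5% and 56.0%.

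Other genes of the kinetochore were taken from a list of 29 that holds no member, and all were measured. Of these, 21 (72.4%) had a log2 ratio above 0 and 8 below, against 44.5% and 55.5% of measured genes. Intervals lay above 0 for 12 (41.4%) and below 0 for 7 (24.1%), against 23.3% and 28.6% of measured genes. The median was 0.28, against -0.11 for all measured genes. SGO2, which protects centromeric cohesion, was highest at 1.51, with 65.1 and 186 CPM. The CCAN subunits CENPX and ITGB3BP (CENP-R), at 1.29 and 1.20, followed. CENPX rested on 86 and 19 counts (interval 0.51 to 2.04) and ITGB3BP on 2611 and 533 (interval 1.06 to 1.33). Both, at 713 and 1027 bases, fell in the length bin whose median over all measured genes was 0.62. The lowest were KNTC1, the rod subunit of the complex that brings dynein to kinetochores, at -1.13 with 264 and 120 CPM, the microtubule plus-end protein CLASP2 at -0.94 and HASPIN, the kinase that marks centromeric histone H3, at -0.91. Past 2-fold, 5 genes were higher and KNTC1 alone was lower, beside 12.2% and 14.2% of all measured genes. With the median of each length bin removed, 2 were higher and none lower, beside 11.2% and 12.1% of all measured genes. The median of the list was then 0.057. With gene TPM and 1 added, the split of this list was 11 above 0 and 18 below.

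Downstream of the checkpoint, the anaphase-promoting complex and cohesin list of 27 genes had a median log2 ratio of -0.04. Its intervals lay above 0 for 9 genes and below 0 for 9 (33.3% each), against 23.3% and 28.6% of measured genes. Past 2-fold, 3 genes of the list were higher and none lower, beside 12.2% and 14.2% of all measured genes. The list ran from PDS5B, a cohesin regulator, at -0.72 to ANAPC15, an anaphase-promoting complex subunit that helps to release the checkpoint, at 1.80. The 12 cell cycle markers had a median of 0.06 and none was past 2-fold. Of the genes that averaged 10 CPM or more, 6.1% were at least 2-fold higher and 8.63% lower. The markers ran from TOP2A, the mitotic DNA topoisomerase, at -0.43 to CDK1, the main mitotic kinase, at 0.53. MKI67 had 427 and 379 CPM (log2 ratio -0.17).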

How the data were processed

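The 2 libraries, of HEK293T poly-A RNA, were grouped by title, 1 per group. Quantification was with kallisto 0.46.1 on GRCh38, per the submitters' processing notes, and per the labels' protocols libraries came from a directional kit after poly-A selection. The sources used here do not name the trimming, annotation release or strand setting. The deposited tables list 70866 RefSeq transcripts, with estimated counts, TPM and 2 lengths (total and effective) in bases, per the file headers. Estimated counts, as the authors deposited them, are shared among transcripts with common sequence and need not be whole. TPM, as the authors deposited it, is scaled by effective length to a fixed total and keeps no depth.

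Gene names came from a RefSeq table for 70239 transcripts and from GENCODE 29 for 299, and 328 stayed unnamed, with 0.0723% of control and 0.0713% of tRF-3004b counts. Counts and TPM were summed per gene and counts rounded. CPM and ratios use TMM factors of edgeR 4.0.16 (1.02 and 0.983). Its test was not used. The log2 ratio has 0.5 counts added at a common library size, and a 95% interval from the exact Clopper-Pearson bounds of the split of both counts. Since reads carry no molecular identifiers and are not independent molecules, these bounds cover counting error only. A gene counted as measured if its CPM averaged 1 or more. Length is the mean over a gene's transcripts weighted by TPM. Intervals were tested on simulated counts.

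Alternatives were library size alone, DESeq2 1.42.0 size factors, gene TPM with 1 added, 5 added counts, a CPM filter of 5 in place of 1, no filter but 1 count, thinning of the control library, removal of the median of 10 length bins, and transcript shares of TPM. The members and lists were chosen with earlier results of these data known. All members are named, with the 3 highest and 3 lowest other kinetochore genes, the highest and lowest of the next 2 lists, and the transcripts of the 5 members whose shares differed most. HJURP, MIS18A, OIP5, MKI67, and the CENPE, BUB3, CENPK and NUF2 transcripts were named outside that rule, after their values were seen. Python 3.11.15 and R 4.3.3 were used.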

Additional observations from a re-analysis of the deposited data

How the results depend on the processing

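No paired analysis was possible because each group had 1 library, and for the same reason no replicate could be left out. The counts of members past 2-fold were 2 or 3 higher and 0 lower under all 8 alternatives, but not always the same genes. CENPQ left with gene TPM (0.80) and CENPM with the control thinned (0.56). With the length bin median removed both left (0.89 and 0.82) and MAD2L1 entered at 1.09. The median log2 ratio of the members stayed between 0.11 and 0.23 except with gene TPM and 1 added, where it was -0.10. That scale moved the median of all measured genes from -0.11 to -0.38, and the members stood 0.28 above that median, against 0.27 with scaled counts. The shares of all measured genes past 2-fold, 12.2% on the higher and 14.2% on the lower side, became 6.82% and 10.5% with the CPM filter of 5 and 15.4% and 25.9% without a filter. The higher share of all 2-fold differences was 46.3% with scaled counts but 21.8% with gene TPM. The TPM scale changed the sign of 9 members (CENPP, CENPF, NUF2, KNL1, MIS12, BUB1B, BUB3, AURKB and SKA2), DESeq2 size factors that of NDC80, NSL1 and BUB1, the thinned control that of CENPP and BUB1, and removal of the length bin median that of 8 members (CENPO, CENPW, CENPJ, NSL1, BUB1, BUB3, AURKB and INCENP). CENPE was past 2-fold under every alternative, from 1.71 with gene TPM to 2.58 with the length bin median removed. With the control library thinned, which leaves fewer counts, 3 member intervals lay below 0 in place of 6. For the other kinetochore genes, the number at least 2-fold higher, 5 in the main values, was 3 with library size alone, 1 with gene TPM and 2 with the length bin median removed. The number at least 2-fold lower, 1 in the main values, was 4 with gene TPM, 2 with the control thinned and 0 with the length bin median removed. With gene TPM 11 ratios lay above 0 and 18 below, with a median of -0.063, and with the length bin median removed 7 intervals lay above 0 in place of 12. The causes were not tested. Depth limits CENPT, CENPM and CENPL most, with 17, 23 and 39 counts in the mimetic library.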
